A study of Mus musculus with 2 samples.

Results

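Among tumor mononuclear phagocytes (TMPs) sorted from B16 melanoma, a mouse skin cancer line grown as a tumor, a small set of cells carried transcripts of dendritic cells (DCs). These cells were chosen on measured values. A cell was a member when it held 3 or more unique molecular identifiers (UMIs, each standing for 1 captured transcript) summed over 6 rule genes, Flt3, Zbtb46, Cd209a, Xcr1, Clec9a and Ccr7. The rule found 162 members among the 14351 cells with 200 to 7000 genes and at most 30% mitochondrial UMIs, and the other 14189 are called the remaining cells. The cells came from 2 droplet-based single-cell libraries of C57Bl/6 mice, 1 from Fcmr+/+ mice and 1 from mice that lacked Fcmr, a receptor for immunoglobulin M, in every cell of the body (Fcmr-/-). Both were sorted for surface MerTk and CD64, and the sources used here give neither how many mice were pooled for a library nor their age at the sort. Each genotype is thus a single sample with no measure of mouse-to-mouse spread. Cells of 1 library are not replicates, and the comparison of members with remaining cells is the one the rule made. No test was therefore run, and all 95% intervals cover counting error only.

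DCs take up antigen, carry it to lymph nodes and present it to T cells on MHC class II and class I molecules. Conventional DCs depend on the cytokine receptor Flt3 and express the transcription factor Zbtb46, and they fall into cDC1, which carry Xcr1 and Clec9a and are known for presenting antigen of dead cells to CD8 T cells, and cDC2, which in mice often express lectins such as Cd209a and Mgl2. When DCs mature they express Ccr7, the chemokine receptor that leads them to lymph nodes. MerTk and CD64, the receptors used for the sort, are commonly used to tell macrophages from DCs.

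In the Fcmr+/+ library 71 of 6352 cells were members, a share of 1.12% (Clopper-Pearson interval 0.874 to 1.41). In the Fcmr-/- library 91 of 7999 cells were members, a share of 1.14% (interval 0.917 to 1.39), so the shares differed by less than counting error. The members held 1564418 UMIs in the Fcmr+/+ library and 1767925 in the Fcmr-/- library. Fcmr+/+ members had a median of 17957 UMIs and 3619 genes, against 17982 UMIs and 3746 genes in remaining cells. Fcmr-/- members were deeper than the other cells of their library, with a median of 17370 UMIs and 3794 genes against 12879 UMIs and 3155 genes. The rule counts raw UMIs, and in the Fcmr-/- library the 4 equal bins of cells by UMIs held 12, 20, 19 and 40 members from the shallowest to the deepest, shares of 0.600% in the first and 2.00% in the last. In the Fcmr+/+ library the shares from the shallowest to the deepest bin were 0.819%, 1.45%, 1.07% and 1.13%, with no steady rise. When every cell was thinned to 6000 UMIs, which left out 443 shallower Fcmr-/- cells, 0.630% of Fcmr+/+ and 0.728% of Fcmr-/- cells met the rule. Without Cd209a the shares were 0.378% and 0.638%, and with UMIs of at least 2 different rule genes 0.598% and 0.688%. Mitochondrial genes took a median of 3.92% of UMIs in Fcmr+/+ members and 3.55% in Fcmr-/- members, against 4.71% and 4.08% in remaining cells. The 2 libraries had 73 cell barcodes in common, and none of them was a member.

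Cd209a and Ccr7 chose most members. Of the 2218 rule UMIs in members, Cd209a gave 1223 in 107 members and Ccr7 gave 722 in 71 members. Flt3 gave 107 UMIs in 50 members, Xcr1 81 in 17, Clec9a 45 in 18 and Zbtb46 40 in 28. A single rule gene was seen in 69 members, 2 in 63 members, 3 in 24 members and 4 in 6 members. Xcr1 and Clec9a occurred together in 13 members, whereas no member held both Xcr1 and Cd209a. By level, Cd209a came first in both libraries, at 385 CPM (a gene's UMIs divided by all UMIs of the group, times 1000000) in Fcmr+/+ members and 351 in Fcmr-/- members. Ccr7 followed at 107 and 313 CPM, Flt3 at 32.6 and 31.7, Zbtb46 at 10.2 and 13.6, Xcr1 at 7.03 and 39.6, and Clec9a at 7.03 and 19.2. These levels chose the members and are given as a description. In remaining cells none of the 6 genes reached 0.5 CPM in either library, a range the rule itself sets.

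**Figure D1:**
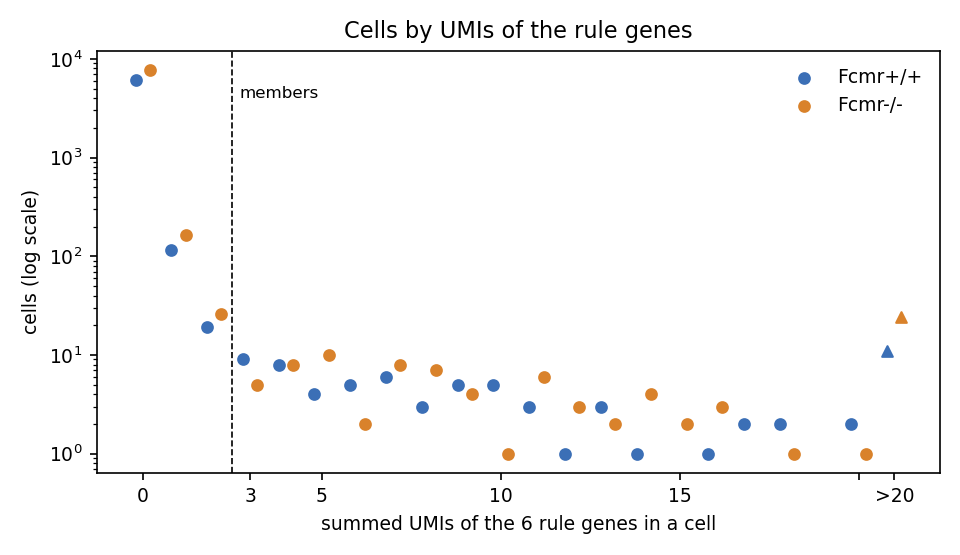
Number of cells (log scale) by summed UMIs of the 6 rule genes in a cell, for Fcmr+/+ and Fcmr-/- cells, with triangles for all cells above 20. The dashed line marks the rule, with 45 cells at 2 UMIs just outside and 14 cells at 3 UMIs just inside.

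The 14 cells at 3 rule UMIs, just inside the rule, had summed MHC class II genes at 22564 CPM and macrophage genes at 22038 CPM. The 45 cells at 2 rule UMIs, just outside, had 18144 and 19731 CPM. The 13865 cells with no rule UMI stood at 8492 and 28611 CPM, and the 38 members with 20 or more at 37237 and 11539 CPM. Cells at 2 and 3 rule UMIs thus lay between those with none and those with 20 or more, and macrophage genes were higher at 3 than at 2.

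Summed over the members, DC genes outside the rule stood above remaining cells. For each gene UMIs were summed over the cells of a group and expressed as CPM, and log2 ratios of members to remaining cells were taken with 1 CPM added, which understates the ratio of low genes. Of the 7234 genes with at least 10 CPM in members or remaining cells of both libraries, 231 genes or 3.19% were 2-fold or more higher in members in both libraries, and 32 genes or 0.442% were 2-fold or more lower. These shares are a background for the lists that follow, and the median log2 ratio of all these genes was -0.05. The lists were chosen with earlier results of these data known, and some genes are on more than 1 list. A gene can pass this filter through the group where it is high. Over all 18035 genes with a UMI the shares were 2.37% higher and 0.449% lower, and without the filter 21 of 25 conventional DC, 10 of 12 class II, 12 of 19 cDC2, 9 of 23 cDC1 and 8 of 33 mature DC genes were higher in both libraries. The unfiltered medians were 2.58, 2.59, 1.57, 1.01 and 0.88 in this order. Of 19 conventional DC genes that passed the filter on low values, out of 25, 15 were 2-fold or more higher in both libraries and none was lower, with a median of 2.15. Napsa, an aspartic protease, had 320.2 CPM in Fcmr+/+ members against 31.3 in remaining cells, a log2 ratio of 3.31, and 295 against 30.2 in the Fcmr-/- library, a ratio of 3.24. Cbfa2t3, a transcriptional corepressor of the DC lineage, had 79.9 against 6.56 CPM and 104 against 7.66. P2ry10, a G protein-coupled receptor, had 74.2 against 0.781 CPM and 79.8 against 1.14. Each of these genes was higher in members of both libraries and came from many cells, since 138 members had a UMI of Napsa, 112 of Cbfa2t3 and 101 of P2ry10. Rab7b went the other way, at 189 against 267 CPM and 183 against 228.

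**Figure D2:**
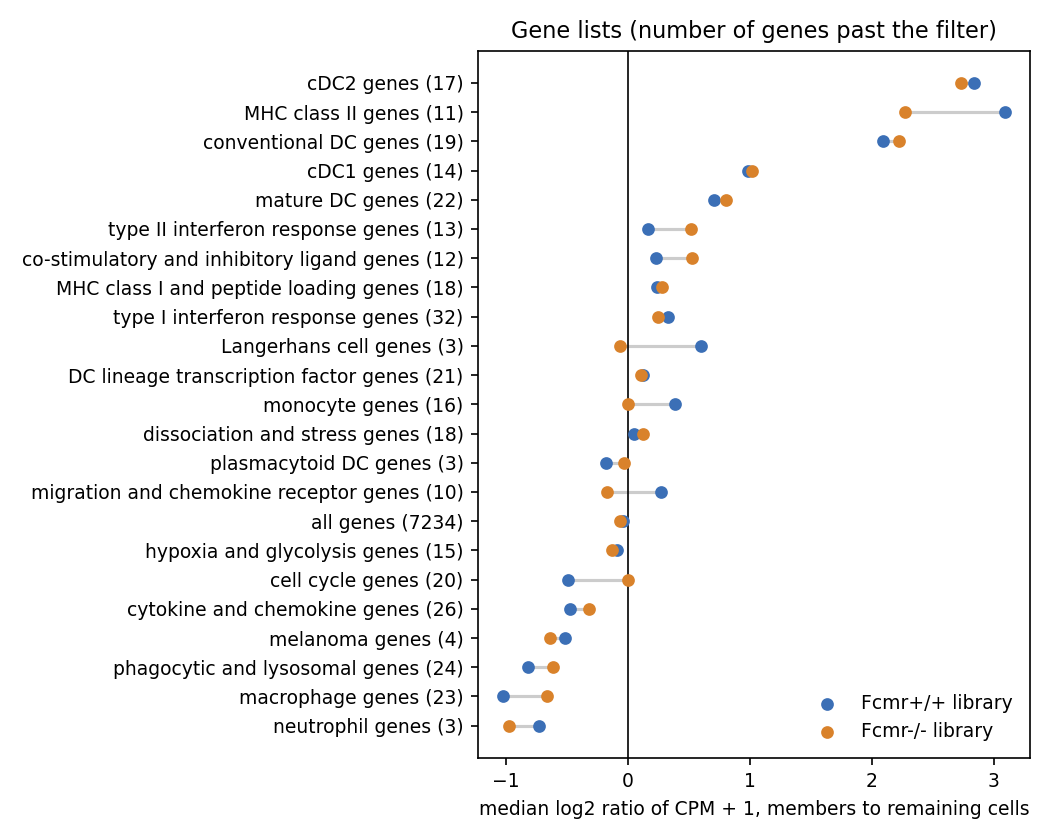
Median log2 ratio of CPM + 1 of members to remaining cells for each gene list (number of genes that passed the filter), as 1 point for the Fcmr+/+ library and 1 for the Fcmr-/- library. cDC2, MHC class II and conventional DC genes stand above 2 in both libraries, and macrophage genes stand at -1.02 and -0.66.

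MHC class II genes were the most abundant DC feature of the members. Of 11 genes of the list that passed the filter, out of 12, 10 were 2-fold or more higher in both libraries, with medians of 3.09 in the Fcmr+/+ and 2.27 in the Fcmr-/- library. Their summed level was 34746 CPM in Fcmr+/+ members against 7279 in remaining cells, and 30858 against 10107 in the Fcmr-/- library. Cd74, the invariant chain that guides class II molecules, had 13085 against 2161 CPM and 11188 against 3196 CPM. H2-Ab1, a class II chain, had 6016 against 705.5 CPM and 5138 against 1061 CPM. The ratio was larger for H2-DMb2, H2-Oa and H2-Ob, subunits of the chaperones that control peptide loading. H2-DMb2 had 162 against 4.41 CPM in the Fcmr+/+ and 158 against 4.10 in the Fcmr-/- library, and 116 members had a UMI against 5.03% of remaining cells. H2-Oa had 45.4 against 0.268 CPM and 60.0 against 0.545. Ciita, the transcriptional activator of class II genes, had 39.0 against 1.90 CPM and 39.6 against 4.86. The exception was Ctss, the protease that trims the invariant chain, with log2 ratios of -0.49 and -0.29.

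Genes of the DC subsets and of maturation differed in how far they went. Of 17 cDC2 genes that passed the filter, out of 19 analysed here, 12 were 2-fold or more higher in both libraries, with a median of 2.77. Among them were H2-DMb2, also on the class II list, Ccl17, also on the mature DC list, and Cd209d, a relative of the rule gene Cd209a. Ifitm1, an interferon-induced membrane protein, had 434 against 14.4 CPM in the Fcmr+/+ library and 714 against 21.5 in the Fcmr-/- library. Mgl2, a lectin, had 678 against 38.2 CPM and 390 against 28.7. Irf4, a transcription factor of cDC2, had 43.5 against 5.21 CPM and 24.9 against 2.89. Sirpa, an inhibitory receptor of cDC2 that macrophages also carry, was at 272 against 405 CPM and 299 against 427. Of 14 cDC1 genes that passed the filter, out of 23, 6 were higher and 1, the scavenger receptor Cd36, was lower, with a median of 1.04. Naaa, an acid amidase, had 269 against 90.4 CPM and 408 against 137, and Itgae, the integrin CD103, had 16.0 against 0.0788 and 18.1 against 0.0895 CPM. Of 22 mature DC genes that passed the filter, out of 33, 6 were higher and none was lower, with a median of 0.80 that came to 0.34 at a filter of 50 CPM. Cd83 was near the remaining cells, with log2 ratios of 0.18 and 0.56, whereas Ccl22, a chemokine of mature DCs, had 23.01 against 0.473 CPM and 69.0 against 0.334. Of the 3 plasmacytoid DC genes that passed the filter, out of 13, none was past 2-fold, and Siglech had 6 UMIs in 3 members. Without the filter 2 of the 13 were higher in both libraries and none was lower, with a median of 0.71, beside 2.37% of all genes higher.

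The 15 genes with the highest ratio in both libraries were Ccl17, Klrd1, Plet1, Klrb1b, P2ry10, H2-Oa, H2-DMb2, Ifitm1, Il1r2, Ramp3, H2-Ob, Il4i1, Asgr2, Cd209d and Ccl22. Ccl17, a chemokine that attracts T cells through Ccr4, led with 704 CPM in Fcmr+/+ members against 4.26 in remaining cells and 221 against 2.34 in the Fcmr-/- library. Its UMIs lay in 40 members, and 1 cell gave 20.8% of them. Klrd1, the lectin-like receptor CD94 of natural killer cells that some DCs also express, had 107 against 0.284 CPM and 123 against 1.34. It was seen in 83 members and in 0.592% of remaining cells. Klrb1b, a receptor of the same gene complex, had 125 against 1.42 CPM and 119 against 2.13 and was seen in 107 members. Il1r2, the decoy receptor for interleukin-1, had 283 against 8.91 CPM and 198 against 6.06.

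Macrophage genes were lower in members but far from absent. Of 23 macrophage genes that passed the filter, out of 24, 2 were 2-fold or more lower in both libraries and none was higher, with medians of -1.02 in the Fcmr+/+ and -0.66 in the Fcmr-/- library. Their summed level was 15363 CPM in Fcmr+/+ members against 30449 in remaining cells, and 15230 against 26415 CPM in the Fcmr-/- library. Apoe, a lipid carrier and the most abundant gene of the list, had 3163 against 6815 CPM and 2612 against 5129. C1qa, a chain of complement C1q, had 931 against 2277 CPM and 1289 against 2287. Mertk, which encodes the first antigen of the sort, had 35.8 CPM in Fcmr+/+ members against 63.1 in remaining cells, and 33.9 against 48.9 in the Fcmr-/- library. A Mertk UMI was seen in 35.2% of Fcmr+/+ members against 58.9% of remaining cells, and in 31.9% of Fcmr-/- members against 43.5%. Fcgr1, which encodes CD64, had 192 against 251 CPM and 297 against 396. Both sort genes were thus lower in members of both libraries beyond counting error, and both were present. Fcmr had 6 UMIs in 3 Fcmr+/+ members and none in Fcmr-/- members, which allows up to 1.70 CPM. Remaining cells held 1 Fcmr UMI in the Fcmr+/+ and 6 in the Fcmr-/- library, so the gene was too rare to check the genotype labels.

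The 15 genes with the lowest ratio were Slc40a1, Lyz1, Akr1b8, Fabp4, Ccl24, Cxcl1, Mgst1, Atp6v0d2, Igf1, Ppbp, Rnf128, Ctsk, Gas6, Cd36 and Syngr1. Slc40a1, the iron exporter ferroportin, had 4.48 CPM in Fcmr+/+ members against 36.9 in remaining cells and 3.96 against 29.8 in the Fcmr-/- library. Fabp4, a lipid chaperone, had 175 against 534 CPM and 129 against 416. Gas6, a ligand of MerTk, had 88.9 against 265 CPM and 65.1 against 145. Of 24 phagocytic and lysosomal genes that passed the filter, out of 26, 3 were lower in both libraries and none was higher, with a median of -0.68. Without the filter 4 were lower and 1 was higher. Lyz2, a lysozyme of myeloid cells, had 3901 against 9004 CPM and 4788 against 9072. The number of genes called lower was 14 with 2 or more rule UMIs and 106 with the rule as a share of UMIs. It was 376 after thinning to 6000 UMIs, which changed depth, cells and members together and gave a macrophage median of -1.52.

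Macrophage transcripts were unevenly spread over the members. At most 10 UMIs of the complement genes C1qa, C1qb and C1qc were found in 72 members, a share of 44.4% (interval 36.7 to 52.5), against 18.7% of remaining cells. These 72 members had macrophage genes other than C1q at 4152 CPM, class II genes at 53029 CPM and conventional DC genes at 2937 CPM, with Mertk at 4.12 CPM. Remaining cells with as few C1q UMIs had them at 18031 CPM, class II genes at 10340 CPM and Mertk at 36.0 CPM. The 65 members with 51 or more C1q UMIs had macrophage genes other than C1q at 15788 CPM and Mertk at 52.0 CPM, against 21878 and 60.6 CPM in remaining cells with as many. Their class II genes still stood at 23270 CPM against 8287 CPM, and H2-DMb2 at 93.4 against 3.601 CPM. The 2 kinds of member differed in depth, with a median of 12538 UMIs in those with few C1q UMIs and 25746 in those with many, against 8809 and 19252 UMIs in the remaining cells of the same limits. Limits on raw C1q UMIs move with depth, and whether some barcodes held 2 cells or free RNA of macrophages was not tested. No doublets were removed.

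**Figure D3:**
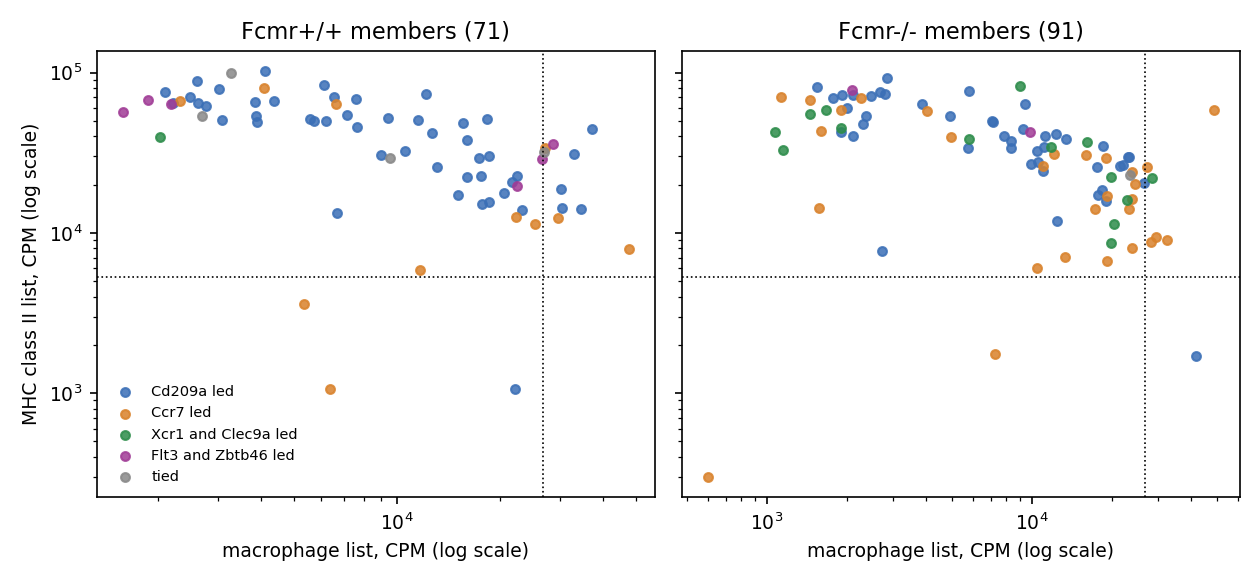
Summed macrophage genes against summed MHC class II genes of each member, both as CPM on log scales, for the 71 Fcmr+/+ and 91 Fcmr-/- members, colored by the rule gene with the most UMIs. Dotted lines mark the medians of remaining cells of both libraries, 26760 and 5309 CPM, and most members lie to the left of the first and above the second line.

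Without the 6 rule genes, members still lay near each other. Among the 30 nearest neighbors of each cell on 20 principal components of 2000 variable genes, members made up a mean of 47.0% for members and 0.327% for remaining cells. The share was 64.4% for members with at most 10 C1q UMIs and 33.1% for the others. At least 15 of the 30 neighbors were members for 87 members and for 17 remaining cells, while 14 members had no member among their neighbors. These values describe the cells, since the genes that separate members also made the components.

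Members were then split by the rule gene or gene pair with the most UMIs. Cd209a led in 94 members, Ccr7 in 40, Xcr1 and Clec9a together in 15, and Flt3 and Zbtb46 together in 8, and 5 members were tied. The groups were unevenly shared by the libraries. Xcr1 and Clec9a led in 1 of 71 Fcmr+/+ members, 1.41% (interval 0.0357 to 7.60), and in 14 of 91 Fcmr-/- members, 15.4% (interval 8.67 to 24.5). Ccr7 led in 11 Fcmr+/+ members, 15.5% (interval 7.996 to 26.03), and in 29 Fcmr-/- members, 31.9% (interval 22.5 to 42.5). Cd209a led in 49 Fcmr+/+ members, 69.0% (interval 56.9 to 79.5), and in 45 Fcmr-/- members, 49.5% (interval 38.8 to 60.1). Flt3 and Zbtb46 led in 6 Fcmr+/+ members, 8.45% (interval 3.17 to 17.5), and in 2 Fcmr-/- members, 2.20% (interval 0.267 to 7.72), and 4 of the 5 tied members were Fcmr+/+ cells. With 1 library per genotype, a difference between the genotypes and a difference between 2 libraries cannot be told apart.

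**Figure D4:**
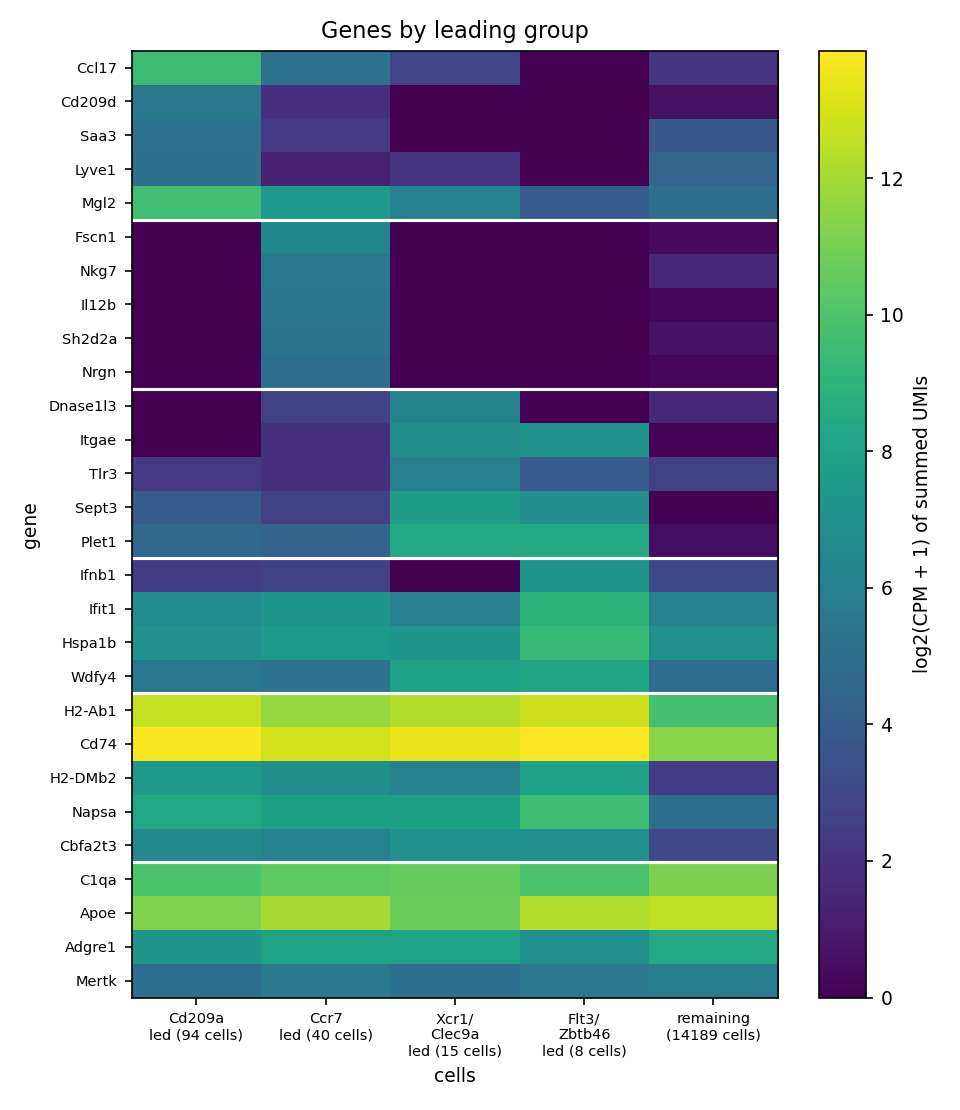
Level of single genes as log2(CPM + 1) of summed UMIs in members by leading rule gene and in remaining cells, with white lines between sets of genes. The top 4 sets hold genes with the highest ratio of 1 leading group to the other members, followed by class II and DC genes and by macrophage genes.

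Members led by Cd209a carried cDC2 genes. Of 19 cDC2 genes, with no filter on low values here and for the other leading groups, 13 were 2-fold or more higher than in remaining cells, with a median of 1.91, beside 2.97% of all genes. Mgl2 had 789 CPM (interval 751 to 829) against 117 in the other members and 33.5 in remaining cells, and Ccl17 had 722 CPM (interval 685 to 759.9) against 22.9 and 3.31. Cd209d, a close relative of Cd209a, had 45.5 CPM against 1.53 in the other members; reads shared between the related genes were not examined. Wnt11, a secreted signaling protein, had 30.6 CPM against 4.59, and Ltb4r1, a leukotriene receptor, had 119 against 21.4. Lyve1, also among the genes with the highest ratio, stood at 34.1 CPM, near the 21.7 CPM of remaining cells. Monocyte genes were also higher in sum, at 8687 against 6206 CPM in remaining cells, with 4 of 18 genes 2-fold or more higher, 1 lower and a median of 0.28. Of these Ccr2, the chemokine receptor of inflammatory monocytes, had 367 CPM against 131 in remaining cells and 135 in the other members. Their part in the values of this group was not tested. Saa3 also ranked high, but 95.7% of its UMIs came from 1 cell.

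Members led by Xcr1 and Clec9a carried cDC1 genes. Of 23 cDC1 genes 20 were 2-fold or more higher than in remaining cells and 1 was lower, with a median of 2.20. Of all genes 7.98% were higher in this small group. Irf8, the transcription factor on which cDC1 depend, had 1042 CPM against 194 in the other members and 163 in remaining cells, with UMIs in all 15 cells. Naaa had 997 CPM against 275 and 113. Itgae had 112 CPM (interval 78.2 to 156) against 7.28 in the other members, and Sept3, a septin, had 196 CPM (interval 150 to 251) against 18.2. Cadm1, an adhesion molecule, had 115 CPM against 24.8, and Tlr3, the sensor of double-stranded RNA, had 64.1 against 3.97. Wdfy4, needed by cDC1 for cross-presentation, had 244 CPM against 54.0. Dnase1l3 had 73.8 CPM against 1.32, with 43.5% of its UMIs from 1 cell, and Plet1 had 346 against 39.7, with 48.2% from 1 cell. The histone genes Hist1h2ap and Hist1h1b and the gene Tnni2 completed the 8 highest. Of the cDC2 genes 3 of 19 were higher and 2 were lower, with a median of -0.15. Several of the genes named for this group were as high in the 8 members led by Flt3 and Zbtb46, of which 6 were Fcmr+/+ cells, with Itgae at 139 CPM, Wdfy4 at 278 and Plet1 at 351 CPM, while Sept3 stood at 109.8 CPM. In those 8 cells 11 of 23 cDC1 genes were 2-fold or more higher than in remaining cells and 3 were lower, beside 8.22% of all genes higher. Of 10 T and natural killer cell genes 6 were also higher in the 15 cells led by Xcr1 and Clec9a and 1 was lower, with a median of 1.31. This count rests on few UMIs, since the list summed to 44.9 against 10.3 CPM and none of its genes reached 10 CPM. At least 2 UMIs of the T cell genes Cd3d, Cd3e and Cd3g were found in 1 cell, which held 6. Macrophage genes summed to 13713 CPM, against 28464 CPM in remaining cells, and 7 of the 15 cells had at most 10 C1q UMIs. The part of other cell types in the values was not tested. Of the 15 cells led by Xcr1 and Clec9a 14 were Fcmr-/- cells, so they describe 1 library.

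Members led by Ccr7 carried mature DC genes, beside genes of other cell types. Of 33 mature DC genes 21 were 2-fold or more higher than in remaining cells and none was lower, with a median of 1.92, beside 6.75% of all genes. Fscn1, the actin-bundling protein of mature DCs, had 81.4 CPM (interval 62.4 to 104) against 0.389 in the other members, but was seen in 9 of 40 cells. Ccl5, a chemokine, had 1037 CPM against 44.4, with UMIs in 22 cells and 30.6% of them from 1 cell. Ccl22 had 114 CPM against 27.6, Il4i1, an enzyme that breaks down amino acids, had 78.8 against 10.9, and Serpinb6b, a protease inhibitor, had 117 against 11.3. Il12b, a subunit of interleukin-12, had 33 UMIs in 2 cells. Other genes of the list were near remaining cells, with Cd83 at 467 against 441 CPM there, Cd40 at 32.8 against 28.0 and Ebi3 at 22.3 against 22.4. Cd63 was lower by less than 2-fold, at 707.6 against 1129.5 CPM. Of 19 cDC2 genes 10 were also higher, with a median of 1.13, and of the 6 B cell genes analysed here 5 were, with a median of 3.29 and a sum of 94.5 against 11.4 CPM in remaining cells. Macrophage genes stood at 19066 CPM in this group, against 14023 CPM in members led by Cd209a and 28464 CPM in remaining cells.

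A few cells of the Ccr7 group carried T cell genes and little class II. Naive and memory T cells also express Ccr7, and 3 of the 40 cells held 2 or more UMIs of the T cell receptor complex genes Cd3d, Cd3e and Cd3g. In these 3 cells class II genes summed to 1109 CPM, against 23943 CPM in the other 37. Class II was also low in some of the other 37, down to 3619 CPM in 1 cell, beside a median of 5309 CPM in remaining cells. T and natural killer cell genes summed to 2389 CPM in the 3 cells, against 129 CPM in the other 37. Some mature DC genes were also higher in the 3 cells, with Serpinb6b at 453 against 86 CPM and Tnfrsf4 at 265.5 against 10.03 CPM. The whole mature DC list summed to 2983 CPM in the 3 cells, against 5365 CPM in the other 37. Cd8a, Cd8b1, Nkg7 and Sh2d2a, which ranked among the 8 highest genes of the group, were seen in 4, 3, 3 and 3 of the 40 cells, and 81.1% of the Nkg7 UMIs came from 1 cell. In all, 5 of the 162 members, 3.09% (interval 1.01 to 7.05), held 2 or more Cd3 UMIs, against 0.233% of remaining cells. This limit, like those on C1q UMIs, was chosen after the values were seen. Without these 5 cells 220 genes in place of 231 were higher in both libraries, and the class II median was 2.67. Of the T and natural killer cell list, of which 10 of 12 genes were analysed here, Klrd1 was the most abundant in members and Ncr1 was at 0. The list summed to 178 CPM in Fcmr+/+ and 161 CPM in Fcmr-/- members, against 1.76 and 19.1 CPM in remaining cells.

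The 8 members led by Flt3 and Zbtb46 were too few for a profile of their own. Their class II genes summed to 40860 CPM and their conventional DC genes to 3711 CPM. Of the 8 genes that ranked highest, Ifnb1, Plet1, Ifit1, Hspa1b, Wdfy4, Ifit3, H2-Oa and Cirbp, 80.0% of the Ifnb1, 68.8% of the Plet1 and 66.7% of the Ifit1 UMIs came from 1 cell.

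Between the libraries, interferon response genes were higher in Fcmr-/- members. Of all 26 type II interferon response genes, with no filter on low values, 16 were 2-fold or more higher in Fcmr-/- members and none was lower, beside 3.87% of all genes higher and 722 of all 18035 lower. Their median log2 ratio was 1.40 in members and 1.44 in remaining cells. Over the 18 genes with at least 10 CPM in either library, a filter that a gene can pass through the library where it is high, it was 1.43 in members. Cxcl9, a chemokine induced by interferon-gamma, had 1 UMI in Fcmr+/+ members, or 0.639 CPM (interval 0.0162 to 3.56), and 272 CPM (interval 248 to 297) in 40 of 91 Fcmr-/- members. In remaining cells it had 14.7 and 184 CPM. Iigp1, an interferon-induced GTPase, had 1.28 CPM in Fcmr+/+ and 99.0 in Fcmr-/- members, and Gbp2, a guanylate-binding protein, 12.8 and 182. Icam1, an adhesion molecule, was lower at 102 and 62.2 CPM. Type I interferon response genes had a median of 0.65 in members and 0.58 in remaining cells, and MHC class I and peptide loading genes 0.69 in both. Within members led by Cd209a the median of the type II list was 1.32, in a group of 49 and 45 cells in the libraries. It was 2.43 in members among cells of at most 5000 genes and 2.58 in members with at most 10 C1q UMIs. In these 2 settings the filter was applied anew, so the genes can differ from the 18 above. Remaining cells under the same limits were not compared, so these values do not show a larger difference in members than in remaining cells.

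**Figure D5:**
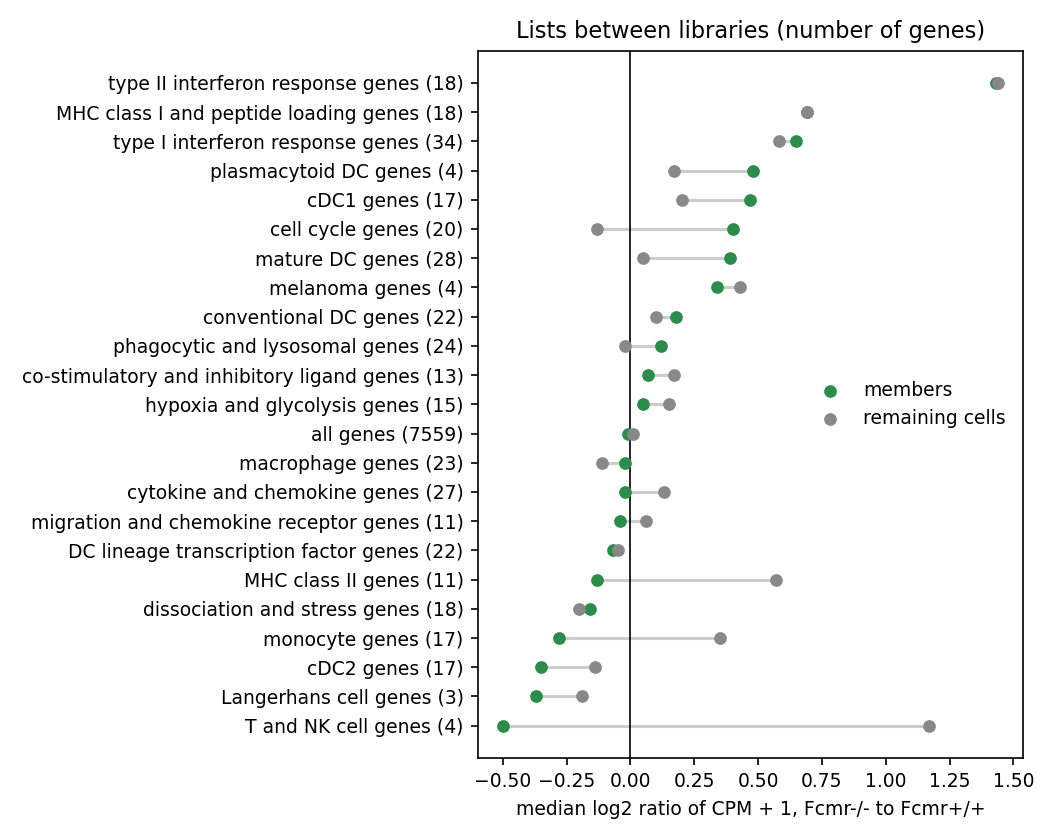
Median log2 ratio of CPM + 1 of Fcmr-/- to Fcmr+/+ cells for each gene list (number of genes), within members and within remaining cells. Type II interferon response genes stand at 1.43 and 1.44, while MHC class II genes stand at -0.13 in members and at 0.57 in remaining cells.

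For MHC class II genes the median ratio of Fcmr-/- to Fcmr+/+ cells was lower in members than in remaining cells. The median of the list between genotypes stood at -0.13 in members and 0.57 in remaining cells. Its sign in members turned with the cells taken. It was 0.17 in members led by Cd209a, -0.09 in those of them with at most 10 C1q UMIs, and -0.22 in members led by Ccr7. For Cd74 the log2 ratio was -0.23 in members, with an interval from -0.25 to -0.20, and 0.56 in remaining cells. H2-Ab1 had -0.23 and 0.59. Ciita was level in members, at 39.0 and 39.6 CPM, and was at 1.90 and 4.86 CPM in remaining cells. The difference between members and remaining cells in this contrast was not tested.

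The 10 genes highest in Fcmr-/- members, among 2947 with at least 50 CPM in one of the libraries, were Cxcl9, Iigp1, Gbp2, Ccl5, Ly6a, Serpina3g, Ifi47, Igtp, AW112010 and Serpinb6b. Ly6a, the surface protein Sca-1, had 72.2 CPM in Fcmr+/+ and 612 in Fcmr-/- members. Ccl5 and Serpinb6b, the genes of the Ccr7 group, had log2 ratios of 3.09 and 1.95 in all members and 1.36 and 0.23 in those led by Cd209a. In Fcmr+/+ members 1 cell gave 57.1% of the 84 Ccl5 UMIs and 90.5% of the 21 Serpinb6b UMIs. Without the cell with the most UMIs of the gene in each library, a check chosen after the values were seen, the ratios were 3.76 and 4.35. The 10 lowest were Mt2, Areg, Slpi, Gm12840, Timp1, Ccl17, Gclc, Ank, Errfi1 and Tns1. Mt2, a metallothionein, had 361 and 87.1 CPM in members and was also lower in Fcmr-/- remaining cells, at 447 and 121 CPM. Areg, a growth factor of the epidermal growth factor family, had 91.4 and 24.9 CPM in members and 40.8 and 43.1 in remaining cells. Ccl17 had a log2 ratio of -1.67 in all members and -1.25 in those led by Cd209a. Gclc, a subunit of the enzyme that starts glutathione synthesis, rested on a single cell, which gave 70.4% of its 98 UMIs in Fcmr+/+ members. Its log2 ratio of -1.65 came to -0.23 without the cell with the most UMIs in each library, at 19.03 and 16.1 CPM. The same step took AW112010 from 2.06 to 2.66, and the other 16 named genes moved by less than 1.5-fold and kept their sign. The leading groups had different shares in the libraries, and their part in the values was not tested beyond these values within the Cd209a group.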

How the data were processed

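The authors sorted MerTk+ CD64+ cells from B16 tumors, made 10x Chromium libraries and mapped reads to GRCm38 with Cell Ranger, and the submitters' processing notes also name Seurat 2.1.0. The deposited values are raw UMI counts per gene and cell, not normalized. Members and gene lists were chosen with earlier results of these data known. UMIs were summed per group as CPM with numpy 2.4.6 and scipy 1.17.1 under Python 3.11.15. Of symbols shared by several identifiers, the one with the most UMIs was kept. Intervals are at 95%, exact Poisson for CPM, Clopper-Pearson for shares and conditional binomial for ratios, with up to 3 UMIs allowed for a count of 0. Genes named are the rule genes, list genes, sort genes, the 15 highest and 15 lowest ratios at 20 CPM, 8 per leading group and 10 each way between genotypes; some of them are not reported here. Calculations were tested on simulated data. Alternatives covered the rule, depth, scaling, the added CPM, filters and each library alone. Doublets were not called.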

Additional observations from a re-analysis of the deposited data

Results flagged for a closer look

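Among lists with 3 or more genes that passed the filter, 2 had a median log2 ratio of members to remaining cells of opposite signs in the libraries. Langerhans cell genes, with 3 genes that passed the filter, stood at 0.60 in the Fcmr+/+ and -0.06 in the Fcmr-/- library. Migration and chemokine receptor genes, with 10 of 15 genes that passed the filter, stood at 0.27 and -0.17. Over all 15 genes, with no filter, the median was 1.01, and 3 were 2-fold or more higher in both libraries and none was lower. The only B cell gene that passed the filter, Cd79b, stood at 0.44 and -1.17. In 7 lists the median log2 ratio of Fcmr-/- to Fcmr+/+ cells had opposite signs in members and in remaining cells. These medians took genes with at least 10 CPM in members of either library. The median was -0.13 and 0.57 for MHC class II genes, -0.28 and 0.35 for monocyte genes, -0.50 and 1.17 for T and natural killer cell genes, and 0.40 and -0.13 for cell cycle genes. It was nearer to 0 for migration and chemokine receptor genes at -0.04 and 0.06, for cytokine and chemokine genes at -0.02 and 0.13, and for phagocytic and lysosomal genes at 0.12 and -0.02. With no filter the signs were no longer opposite for monocyte genes, at 0.01 and 0.29, and for phagocytic and lysosomal genes, at 0.12 and 0. With the filter, within members led by Cd209a, the medians were 0.17 for class II, 0.53 for monocyte, -0.73 for T and natural killer cell, 0.01 for cell cycle, 0.24 for migration, 0.12 for cytokine and -0.01 for phagocytic genes. None of these differences was tested, since each genotype has 1 library.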

How the results depend on the processing

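With 1 library per genotype, counting intervals do not cover the spread between mice, between cells or between captures, and doublets, free RNA and the sort gate were not examined. Shares of members were 1.42% of Fcmr+/+ and 1.46% of Fcmr-/- cells with 2 or more rule UMIs, 0.850% and 0.975% with 5 or more, 0.630% and 0.728% after thinning to 6000 UMIs, 0.378% and 0.638% without Cd209a in the rule, and 0.598% and 0.688% with 2 different rule genes. The numbers of genes 2-fold or more higher were 100 at 50 CPM, 427 with no filter and 439 among cells with 10 or fewer C1q UMIs, an alternative chosen after seeing the data. Those lower were 14 with 2 or more rule UMIs, 65 with 5 or more, 376 after thinning, 106 with the rule as a share, 60 without Cd209a, 71 with 2 rule genes, 156 at 5000 genes or fewer, 113 without the deepest 5% of cells, 122 by the mean over cells, 21 by median-ratio scaling, 20 at 50 CPM, 81 with no filter, 170 and 99 in the Fcmr+/+ and Fcmr-/- library alone, and 509 at 10 or fewer C1q UMIs. With 2 or more rule UMIs the medians were -0.72 for macrophage and 2.47 for class II genes. With 5 or more, conventional DC, macrophage and class II genes stood at 2.47, -0.98 and 2.76, after thinning at 2.59, -1.52 and 3.08, as a share at 2.77, -1.02 and 2.84, and with 2 rule genes at 2.76, -0.95 and 2.73. Without Cd209a they stood at 2.85, -0.72 and 2.31, with mature DC genes at 1.05. At 5000 genes or fewer they stood at 2.76, -1.09 and 2.84, without the deepest cells at 2.64, -1.03 and 2.83, by the mean over cells at 2.65, -1.05 and 2.77, and at 10 or fewer C1q UMIs at 2.87, -1.57 and 3.03. Class II genes were at 2.71 by median-ratio scaling, 2.35 at 50 CPM and 2.59 with no filter, conventional DC genes at 2.58 with no filter, and mature DC genes at 0.34 at 50 CPM. In the libraries alone macrophage genes were at -1.02 and -0.66 and class II genes at 3.09 and 2.27. The type II interferon median between genotypes was 2.43 at 5000 genes or fewer, 1.67 without the deepest cells, 1.82 by the mean over cells, 1.76 at 50 CPM and 2.58 at 10 or fewer C1q UMIs. The filter was applied anew in each, so the genes can differ, and these values are of members only. Type I interferon genes of members against remaining cells, at 0.31, turned to -0.09 after thinning and -0.42 at 10 or fewer C1q UMIs, where cell cycle genes turned from -0.32 to 1.88. The cause was not tested for any of these. The conventional DC, mature DC, macrophage and class II medians and the type II median kept their sign under the alternatives run. Of the values of the main results under the alternatives, 71 moved by more than counting error or, for counts, more than 1.5 times. Another 68 moved by less. Of the values of the other results 41 moved by more, 3 turned sign and 115 moved by less. Weighting remaining cells and each library alone do not apply to the genotype values. No paired analysis was possible because each genotype has 1 library.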

Other observations

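Outside the rule, 17 remaining cells had members for at least 15 of their 30 nearest neighbors, 3 in the Fcmr+/+ and 14 in the Fcmr-/- library. They were shallower than members, with a median of 10313 UMIs against 17650, and 6 of them held no rule UMI. Class II genes were among those that placed them there, so the levels only describe them. Their class II genes summed to 42838 CPM, against 32683 CPM in members and 8638 CPM in the other remaining cells. H2-DMb2 stood at 297 CPM in these cells against 3.98 in the other remaining cells, Mgl2 at 515 against 33.0, and Ifitm1 at 2463 against 15.6. Macrophage genes summed to 14482 CPM, against 15293 CPM in members.

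Genes of B cells, which also express Ccr7 and class II genes, stood above remaining cells in the Ccr7 group and, at a sum of 61.0 against 11.4 CPM, in the 5 tied members. Ebf1, a transcription factor of early B cells, had 16.6 CPM in Fcmr+/+ and 1.70 in Fcmr-/- members against 0.0631 and 0.155 in remaining cells, with 29 UMIs in 8 members. Cd79a, a chain of the B cell receptor, had 6.39 and 2.26 CPM against 0.118 and 0.195, with UMIs in 5 members. Their part in the values of the Ccr7 group was not tested.

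Cell cycle genes had a median log2 ratio of members to remaining cells of -0.49 in the Fcmr+/+ library and 0.00 in the Fcmr-/- library. Monocyte genes stood at 0.39 and 0.00, with 2 of 16 genes 2-fold or more higher in both libraries. These were Plac8, at 305 CPM in Fcmr+/+ members against 136 in remaining cells and 503 against 229 in the Fcmr-/- library, and Ifitm6, at 60.1 against 11.3 CPM and 47.0 against 10.4. Co-stimulatory and inhibitory ligand genes had a median of 0.36. Without the filter 3 of 16 were 2-fold or more higher in both libraries and none was lower, beside 2.37% of all genes higher. Icosl, the ligand of the T cell co-receptor ICOS, was higher at 30.04 against 7.55 CPM and 18.7 against 5.18, while Cd86 stood at 147 against 84.9 and 162 against 105 CPM. The others higher, which did not pass the filter, were Pdcd1lg2, with log2 ratios of 1.99 and 1.52 from 32 UMIs in members, and Tnfsf4, with 1.98 and 2.08 from 11 UMIs.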
